A study of Mus musculus with 24 samples.

Results

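The collagen genes are the protein-coding genes whose symbol is Col, a type number, the letter a and a chain number. Of 55471 genes counted in 24 RNA-seq libraries of mouse embryonic fibroblasts (MEFs), 44 had such a symbol, and they were sorted by textbook class into 11 fibrillar, 9 network, 9 fibril-associated, 6 beaded-filament, 4 membrane, 2 multiplexin and 3 other collagen genes. The libraries formed 8 groups of 3, in which 4 genotypes of 3T3-immortalised MEFs were either left untreated or treated with the cytokine IL-1β (0.1 ng/mL for 6 h). Wild-type MEFs (WT) carried no deletion, Lkb1-/- MEFs lacked the kinase LKB1 (gene symbol Stk11), and the single-cell clones A1 and A2 were LKB1/CRTC2 double knockouts (DKO in the plots), made by cutting the first exon of Crtc2 in the Lkb1-/- cells, so that they lacked LKB1 as well. Each genotype was therefore represented by 1 cell line or 1 clone, and the genotype and the line or clone cannot be told apart in any comparison below. The sources used here do not state that the 3 libraries of a group came from separate cultures, so p-values measure only the spread between these libraries, which may be technical.

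Collagens are secreted or membrane-bound proteins in which 3 chains wind into a triple helix built of repeated triplets that begin with glycine. Fibrillar collagens form the banded fibrils of connective tissue, network collagens form sheets such as those of the basement membrane, fibril-associated collagens sit on fibril surfaces, and type VI collagen forms beaded microfilaments around cells. Fibroblasts are known as a main source of types I, III, V and VI. LKB1 activates the AMPK-related kinases, among them the salt-inducible kinases, which hold the CREB coactivators of the CRTC family in the cytoplasm.

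Gene counts ranged from 38842901 to 48594394 per library, and 95.5% to 96.0% of the stranded gene counts lay on the strand used. Stk11 averaged 86.0 ± 1.68 CPM (gene counts divided by the library's TMM-scaled total; SD, n = 3) in untreated WT cells and 17.3 ± 1.24, 21.4 ± 0.617 and 18.1 ± 0.758 CPM in Lkb1-/-, A1 and A2 cells. Crtc2 averaged 58.4 ± 2.44, 81.1 ± 1.80, 42.9 ± 2.11 and 49.8 ± 0.864 CPM in the same order, and RNA counts do not test an edit in its first exon. Of the fibroblast markers, Vim lay at 2462 to 3208 CPM over the untreated groups, whereas Pdgfra averaged 4.58 ± 0.997 CPM in WT and 342 ± 63.7 CPM in Lkb1-/- cells and Dcn 0.411 ± 0.0653 and 218 ± 12.1 CPM. Thy1, Lum and Fap, also fibroblast markers, were at or near 0, with no library above 0.230 CPM. The library numbered 1 had the lowest share of collagen counts and the highest share of counts assigned to no gene in 8 of 8 groups. Collagen shares were 0.353% to 0.662% in the libraries numbered 1 and 0.454% to 0.777% in the others, and the part of this difference in the results was not tested beyond leaving those 8 libraries out.

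Promoter sequence is shown for the 3 type VI genes. Among members with a mean of at least 1 CPM they changed most between WT and Lkb1-/- cells. It is also shown for Col1a2, Col5a3 and Col8a1, examples of the members whose counts turned on genotype or IL-1β. RefSeq promoter windows on GRCm38.p6 (250 bases before to 50 after a start) were at hand for 35 of the 44 genes, as 38 windows, and only the stretch that overlaps no annotated exon is printed. The Col1a2 stretch lies inside the gene as GENCODE annotates it, between exons, and the others lie directly upstream of the gene's first annotated base. Each reads 5′ to 3′ on the gene's strand, and capitals mark a GC box (GGGCGG) or a CCAAT box on either strand. The Col6a1 and Col1a2 stretches stop 124 and 125 bases short of the RefSeq start.
Col6a1, chr10:76726169-76726294, minus strand: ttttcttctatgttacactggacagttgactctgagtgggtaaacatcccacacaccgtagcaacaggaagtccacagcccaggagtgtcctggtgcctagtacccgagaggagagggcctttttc
Col6a2, chr10:76623631-76623880, minus strand: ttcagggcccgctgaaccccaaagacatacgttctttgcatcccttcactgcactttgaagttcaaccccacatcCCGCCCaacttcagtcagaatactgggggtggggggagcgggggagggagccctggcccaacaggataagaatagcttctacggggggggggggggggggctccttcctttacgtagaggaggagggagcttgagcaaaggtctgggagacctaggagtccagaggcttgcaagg
Col6a3, chr1:90843972-90844221, minus strand: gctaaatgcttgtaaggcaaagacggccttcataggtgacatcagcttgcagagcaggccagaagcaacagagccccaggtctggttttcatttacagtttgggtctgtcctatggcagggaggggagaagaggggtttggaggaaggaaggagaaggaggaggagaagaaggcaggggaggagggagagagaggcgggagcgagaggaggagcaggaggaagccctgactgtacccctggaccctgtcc
Col1a2, chr6:4505370-4505492, plus strand: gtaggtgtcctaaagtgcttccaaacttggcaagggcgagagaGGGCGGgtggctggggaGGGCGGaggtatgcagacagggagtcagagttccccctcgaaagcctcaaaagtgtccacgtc
Col5a3, chr9:20815068-20815317, minus strand: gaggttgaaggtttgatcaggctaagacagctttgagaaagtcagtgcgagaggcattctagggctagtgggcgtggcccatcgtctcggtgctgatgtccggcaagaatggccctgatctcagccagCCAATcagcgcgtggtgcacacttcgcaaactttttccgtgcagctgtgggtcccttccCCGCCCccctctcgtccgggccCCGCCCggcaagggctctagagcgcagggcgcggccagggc
Col8a1, chr16:57754738-57754987, minus strand: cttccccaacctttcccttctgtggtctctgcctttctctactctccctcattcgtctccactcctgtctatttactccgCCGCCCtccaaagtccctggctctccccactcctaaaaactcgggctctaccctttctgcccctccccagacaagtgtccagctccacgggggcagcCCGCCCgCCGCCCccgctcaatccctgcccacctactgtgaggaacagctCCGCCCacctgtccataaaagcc

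Over the whole windows, 7 motifs were searched on both strands. The GC box was in 23 of 38 collagen windows and in 35.7% of all 32851 windows, and CCAAT was in 13 of 38 and in 37.4%. The CREB site TGACGTCA was in 1 window, that of Col24a1, and in 1.79% of all, and its first 5 letters TGACG, which it contains, were in 4 (Col24a1, Col11a2, Col4a5 and Col7a1) and in 20.8%. TATAAA was in 5 and in 13.6%, the AP-1 site TGANTCA in 1 (Col6a1) and in 7.81%, and a consensus NF-κB site in 0 and in 0.411%. A match describes the letters of these windows only.

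Of the 44 collagen genes, 30 passed the filter on low counts that 17522 genes passed, and 14 did not. All 11 fibrillar genes passed, with 5 of 9 network, 5 of 9 fibril-associated, 3 of 6 beaded-filament, 2 of 4 membrane, 2 of 2 multiplexin and 2 of 3 other genes. The longest run of triplets with glycine codons at 1 fixed position held 216 to 344 triplets in the fibrillar genes, with a median of 338, and 23 to 113 in all other classes. Not passed were Col9a1, Col9a2, Col14a1 and Col19a1 (fibril-associated), Col4a3, Col4a4, Col4a6 and Col10a1 (network), Col6a4, Col6a5 and Col6a6 (beaded-filament), Col13a1 and Col23a1 (membrane) and Col26a1, none of which reached more than 13 counts in a library. Among the 30, 9 stayed under a group mean of 1 CPM everywhere: Col2a1, Col8a2, Col9a3, Col15a1, Col17a1, Col20a1, Col22a1, Col25a1 and Col28a1.

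Collagen genes took 0.608% ± 0.0893 (SD, n = 3) of all gene counts in untreated WT cells, 0.482% ± 0.0564 in Lkb1-/-, 0.729% ± 0.0599 in A1 and 0.534% ± 0.115 in A2 cells. With 3 libraries against 3 the smallest two-sided p of an exact permutation test is 0.1, so no difference in this share could pass 0.05. The exact permutation test gave p = 0.3 for Lkb1-/- against WT, 0.1 for A1 against Lkb1-/- and 0.5 for A2 against Lkb1-/-. Per kilobase of transcript, Col1a1, the main chain of type I collagen, was the most abundant collagen RNA in all 8 groups, at 401 ± 81.2, 250.5 ± 35.3, 455 ± 52.0 and 362 ± 101 CPM per kb in untreated WT, Lkb1-/-, A1 and A2 cells. In WT cells Col5a2 (149 ± 20.2) and Col1a2 (146 ± 30.9) came next on that scale, and their levels overlapped within their spread. In Lkb1-/- cells Col3a1 (118 ± 35.6), Col5a2 (94.3 ± 14.6) and Col6a1 (88.4 ± 13.8) followed Col1a1, again within each other's spread. The heat map shows these levels for every library.

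**Figure D1:**
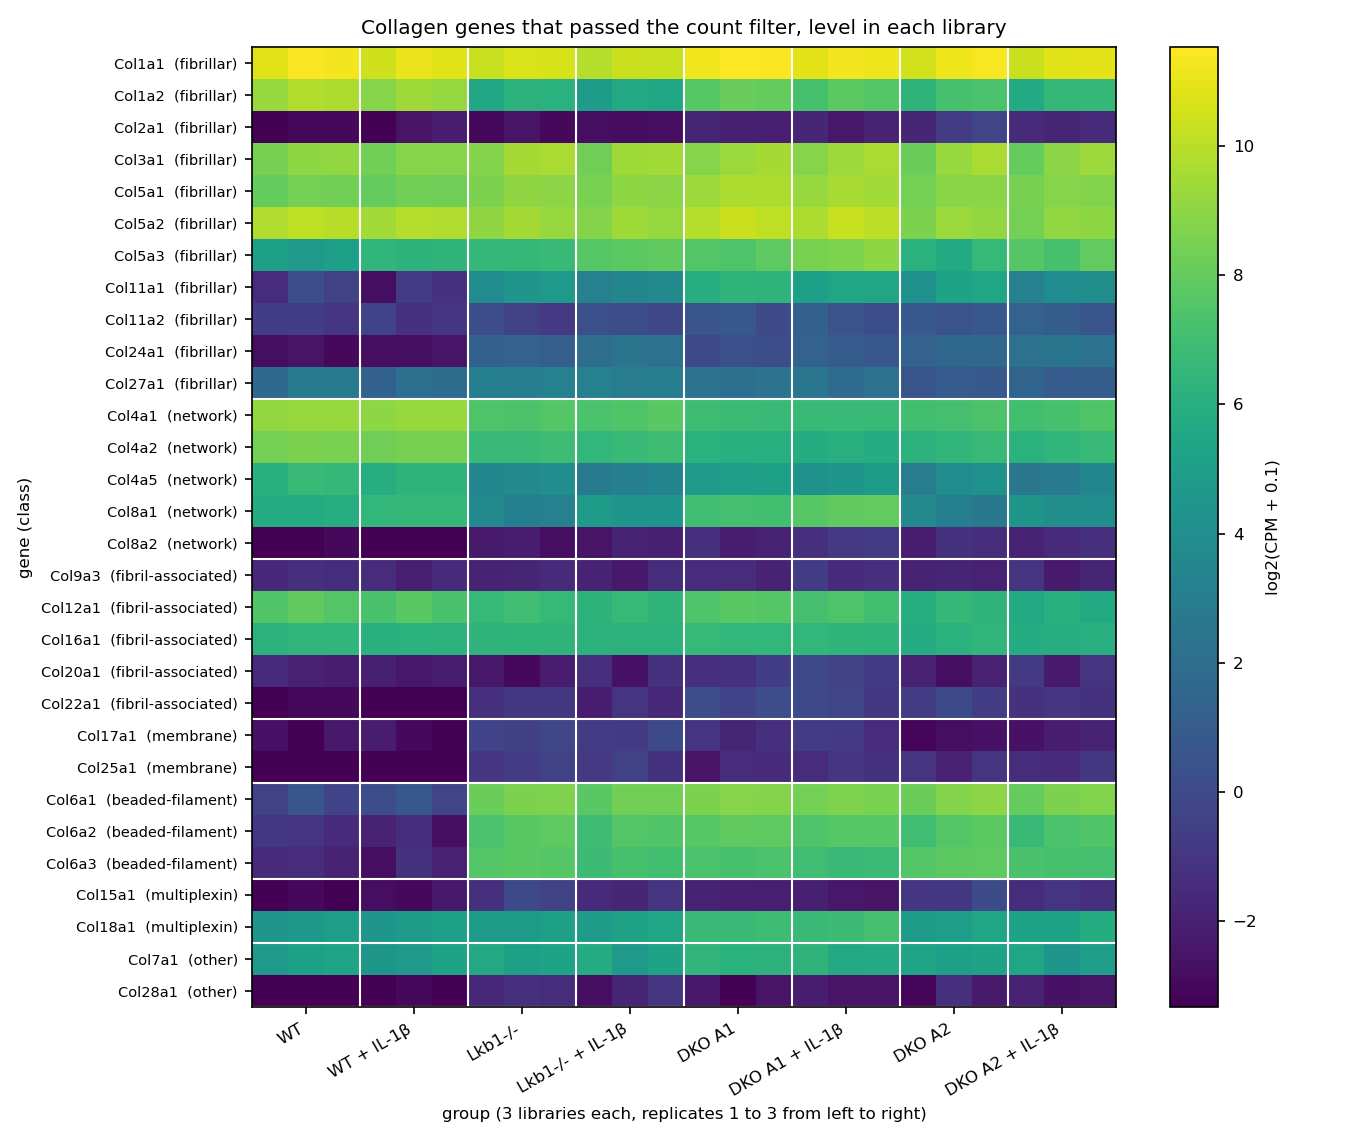
Heat map of log2(CPM + 0.1) for the 30 collagen genes that passed the filter (one line each, ordered by class) in the 24 libraries (columns, 3 per group). The 3 type VI genes are near the bottom of the scale in the 6 WT libraries and high in the 18 others.

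The make-up of the collagen RNA by class differed between genotypes. Per kilobase, beaded-filament genes made up 0.0335% of the summed collagen level in untreated WT cells and 20.3%, 14.7% and 19.2% in Lkb1-/-, A1 and A2 cells. Network genes took 16.4% in WT and 6.05%, 4.77% and 4.58% in the same order. Fibrillar genes stayed the main class, at 79.6%, 69.2%, 75.3% and 72.7%, and fibril-associated genes lay between 2.40% and 3.22%. These shares are group means and carry no test.

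**Figure D2:**
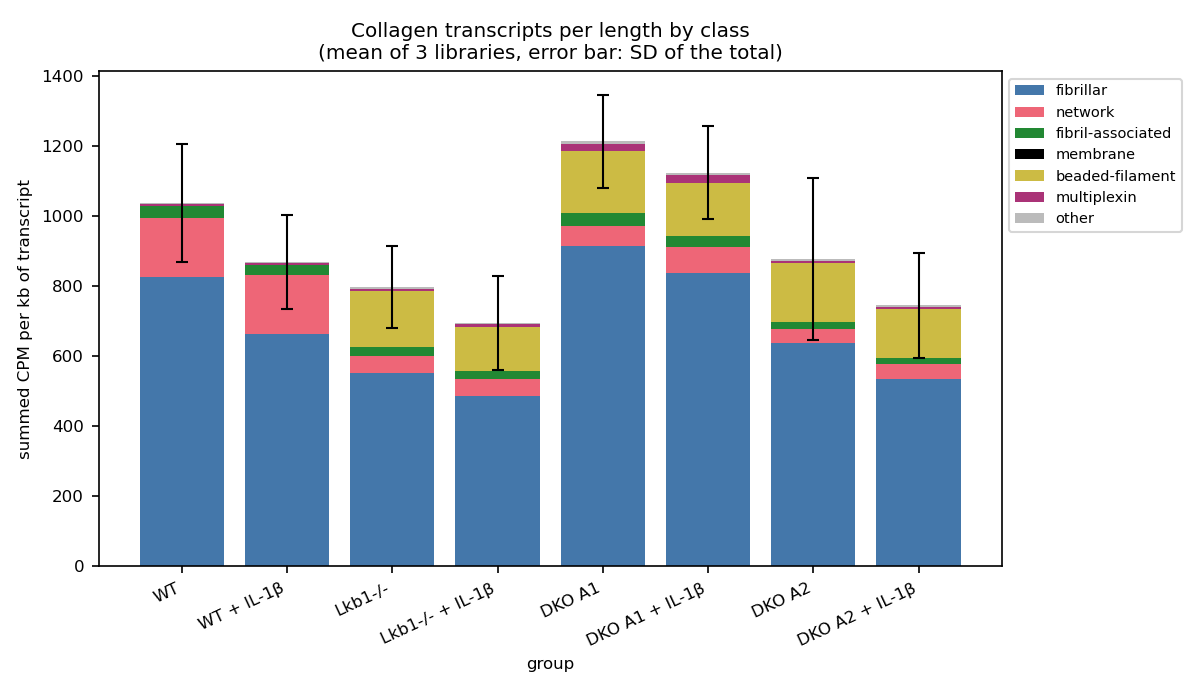
Stacked bars of the mean summed collagen CPM per kb of transcript by class in the 8 groups (error bar: SD of the total over 3 libraries). The beaded-filament part is 0.0335% in untreated WT cells and 20.3% of the bar in untreated Lkb1-/- cells.

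The first comparison asked how RNA levels changed with loss of LKB1. In untreated cells, the 3 type VI collagen genes were 385 to 850.0 times as high in Lkb1-/- as in WT MEFs by group mean, and Col11a1, Col24a1 and Col5a3 of the fibrillar class were higher too. Col1a2, the second chain of type I collagen, and the network genes Col4a1, Col4a2, Col4a5 and Col8a1 were lower. In all, 13 collagen genes were higher and 8 lower of 30 tested (edgeR quasi-likelihood test, Benjamini-Hochberg adjusted p, here FDR, under 0.05), where 55.9% of all 17522 genes were called, 30.1% higher and 25.8% lower. Of the 13, 7 (Col24a1, Col22a1, Col17a1, Col25a1, Col15a1, Col8a2 and Col28a1) had under 10 counts in all 6 WT libraries, so they passed the filter through the groups without LKB1 and had little room to be called lower. Among the 22 tested genes with 10 counts or more in some WT library, 6 were higher and 8 lower. The median log2 fold change was 0.51 over all 30, 0.11 over those 22 and 0.04 over all genes. By class, 4 fibrillar genes were higher and 3 lower of 11, 1 higher and 4 lower of 5 network, 1 and 1 of 5 fibril-associated, and 3 higher of 3 beaded-filament genes. The calls in the membrane (Col17a1 and Col25a1), multiplexin (Col15a1) and other (Col28a1) classes all came from these rare genes and were higher. In bulk RNA, a smaller number of cells that express a gene and less of its RNA per cell cannot be told apart.

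Type VI collagen is assembled from the α1, α2 and α3 chains. Col6a1 (chromosome 10, 76708792 to 76726168, minus strand, GRCm38) read 0.648, 1.47 and 0.704 CPM in the WT libraries and 297, 394 and 396 CPM in the Lkb1-/- libraries, a log2 fold change of 8.58 ± 0.33, FDR 4.87e-15. Col6a2, its neighbour on the same strand (chromosome 10, 76595762 to 76623630), read 0.424, 0.391 and 0.235 CPM in WT and 162, 212 and 227 CPM in Lkb1-/- cells (9.13 ± 0.33, FDR 1.81e-15). Col6a3 (chromosome 1, 90765923 to 90843971) read 0.246, 0.276 and 0.183 and 186, 214 and 199 CPM (9.70 ± 0.20, FDR 5.45e-19). For each of these 3 genes all WT libraries were under 1.5 CPM and all Lkb1-/- libraries over 100 CPM, so the groups did not overlap. The WT values rest on 7 to 64 counts per library. Under IL-1β the log2 fold changes were 8.0, 9.85 and 9.42. The other 6 tested genes within 250 kb of Col6a1 and Col6a2 went mostly the other way. Of these, 1 was higher (Gm48276, log2 fold change 6.34) and 5 were lower (-0.77 to -0.46), and the median over chromosome 10 was -0.44. Around Col6a3, 3 of 5 other genes were higher and 1 lower, up to a log2 fold change of 7.77.

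Of the 11 fibrillar genes, Col24a1, Col11a1, Col5a3 and Col5a1 were higher, and chains of types V and XI are known to seed and limit fibrils. Col11a1 read 0.268, 1.06 and 0.626 CPM in WT and 14.6, 21.1 and 25.7 CPM in Lkb1-/- libraries (4.97 ± 0.43, FDR 2.37e-09). Col5a3 read 33.1, 24.6 and 33.5 and 94.4, 93.4 and 108 CPM (1.70 ± 0.19, FDR 1.39e-07), and neither gene's groups overlapped. Col24a1, a fibrillar chain of developing bone, had 6 counts over the 3 WT libraries and 295 over the 3 Lkb1-/- libraries (2.22, 2.46 and 2.17 CPM), a ratio of 48.1 (95% exact interval 21.9 to 132), which like the other counting intervals here covers counting error only. Col5a1 rose less, from 259.5, 344 and 329.6 to 391, 525 and 485 CPM (0.59 ± 0.16, FDR 0.00298), while its partner chain Col5a2 was lower, at 849, 1117 and 995 in WT and 537, 728 and 609 CPM in Lkb1-/- libraries (-0.66 ± 0.21, FDR 0.0110), a call lost without WT library 2 (FDR 0.0522).

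The type I chains, which wind into the same triple helix, were both lower in Lkb1-/- cells but by unequal amounts. Col1a2 (chromosome 6, 4504814 to 4541544, plus strand) read 595, 912 and 833 CPM in WT and 45.0, 73.4 and 70.7 CPM in Lkb1-/- libraries (-3.63 ± 0.30, FDR 1.37e-09). Col1a1 read 1859, 2811 and 2463 and 1248, 1645 and 1563 CPM (-0.68 ± 0.21, FDR 0.00810). Neither pair of groups overlapped, and the Col1a1 call was lost without WT library 2 (FDR 0.0524). Per kilobase the ratio of Col1a1 to Col1a2 was 2.75 ± 0.0786 (SD, n = 3) in WT and 21.7 ± 2.85 in Lkb1-/- cells. Col3a1, the homotrimer of distensible tissues, read 361, 514 and 561 CPM in WT and 435, 726 and 812 CPM in Lkb1-/- libraries and was not called (0.46 ± 0.36, FDR 0.299), but it was called higher without the filter on low counts (FDR 2.05e-07) and without the 8 libraries numbered 1 (FDR 0.00540). The WT and Lkb1-/- libraries of Col3a1 overlapped, so the small FDR without the filter does not mean that they were separated. Col27a1 (3.26, 7.25 and 7.02 against 8.35, 8.03 and 8.98 CPM; 0.53 ± 0.24) and Col11a2 (0.536, 0.553 and 0.417 against 1.04, 0.626 and 0.452 CPM; 0.49 ± 0.36) were not called either, and the Col27a1 result passed without the filter (FDR 0.0151), with upper quartile normalization (FDR 0.0370) and without WT library 2 (FDR 0.0298).

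The network genes were mostly lower. Col4a1 and Col4a2, the common basement membrane chains, lie head to head on chromosome 8. Col4a1 read 549, 601 and 599.8 CPM in WT and 176, 169 and 192 CPM in Lkb1-/- libraries (-1.70 ± 0.11, FDR 4.43e-11), and Col4a2 339, 380.2 and 375 and 103, 106 and 120.0 CPM (-1.73 ± 0.12, FDR 8.62e-11). Both fell by nearly the same amount, and their ratio per kilobase stayed between 1.54 and 1.80 over all 24 libraries. Col4a5, an X-linked basement membrane chain, read 69.7, 101 and 94.7 and 11.3, 12.8 and 15.4 CPM (-2.75 ± 0.27, FDR 1.99e-08). Col8a1, a short-chain collagen of vessel walls and Descemet's membrane (chromosome 16, 57624258 to 57754737, minus strand), read 58.7, 56.6 and 59.8 and 13.7, 8.56 and 8.74 CPM (-2.50 ± 0.21, FDR 1.16e-09). The WT and Lkb1-/- libraries did not overlap for any of these 4 genes.

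Of the fibril-associated genes, Col12a1 was lower, at 178, 236 and 189.7 CPM in WT and 100.3, 127 and 97.2 CPM in Lkb1-/- libraries (-0.90 ± 0.17, FDR 1.34e-04), and Col16a1 was not called (74.0, 86.1 and 85.8 against 81.0, 84.2 and 85.2 CPM; 0.03 ± 0.10). Col18a1, the multiplexin that yields endostatin, was not called (22.5, 24.3 and 32.1 against 28.7, 27.3 and 34.0 CPM; 0.19 ± 0.19), nor was Col7a1, the anchoring fibril collagen (33.4 ± 7.11 against 41.6 ± 8.15 CPM). Col7a1 was called only without the filter on low counts. The rarer genes were called from few counts. Col15a1 had 1 count over the WT libraries and 78 over the Lkb1-/- libraries, a ratio of 76.4 (95% exact interval 13.3 to 3054). Col22a1 had 2 and 51, a ratio of 25 (95% exact interval 6.57 to 212), and Col8a2 had 1 and 12, a ratio of 11.7 (95% exact interval 1.74 to 502). The membrane collagen Col25a1 and the type VI-like Col28a1 had 0 counts in all 3 WT libraries and were at least 7.17-fold and 3.91-fold higher in Lkb1-/- cells, against a floor of 3 counts per library. Col17a1, a hemidesmosome collagen, rose from 0.0571 ± 0.0529 to 0.697 ± 0.0913 CPM (3.58 ± 0.61, FDR 3.84e-05).

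**Figure D3:**
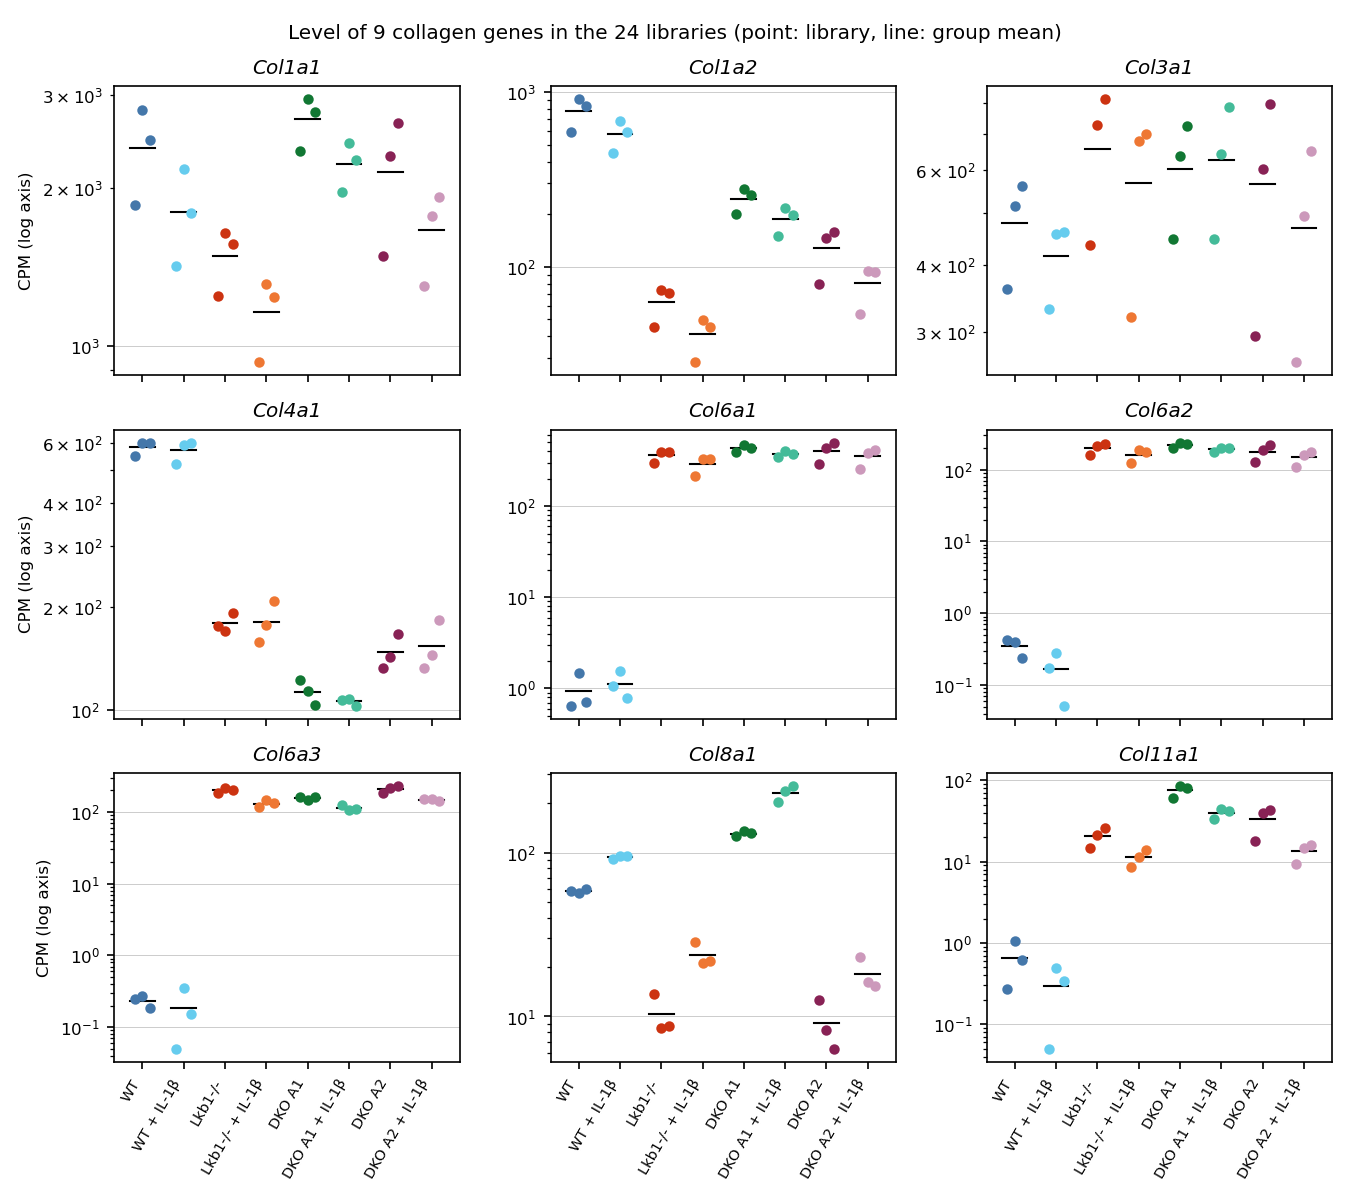
CPM (log axis) of 9 collagen genes in the 24 libraries (points, coloured by group) with the group mean (line) for the 8 groups. The 3 type VI genes lie over 100 CPM in all 18 libraries without LKB1 and under 2 CPM in the 6 WT libraries.

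With IL-1β the same comparison called 15 collagen genes higher and 8 lower of 30, against 57.4% of all genes (30.2% higher and 27.1% lower). Here too the 8 tested genes with under 10 counts in all 6 WT libraries had little room to be called lower. Marker genes also differed between untreated Lkb1-/- and WT cells, where 55.9% of all genes were called. Of the fibroblast list 4 genes were higher and 1 lower of 5 tested, of the chondrocyte list 3 higher of 3, and of the smooth muscle and myofibroblast list 2 higher and 2 lower of 4. The summed level of the chondrocyte list lay at 34.9 to 42.8 CPM in untreated WT and 252 to 266 CPM in untreated Lkb1-/- libraries, with Cnmd at 0 in all 3 WT libraries and Acan at 80.2 ± 15.4 CPM in Lkb1-/- cells. The smooth muscle and myofibroblast list lay at 444 to 740.1 and 13.3 to 23.2 CPM, with Acta2 at 546 ± 158 and 15.8 ± 4.14 CPM. The summed endothelial, epithelial, blood cell and neural crest lists stayed under 10 CPM in all 24 libraries, with Cdh5, Tie1, Cd3e and Sox10 at 0 in the untreated WT and Lkb1-/- libraries. Few of their genes passed the filter, and 1 of 1 endothelial, 1 of 1 epithelial, 1 of 2 blood cell and 0 of 1 neural crest genes were higher and none lower in Lkb1-/- cells. Of the osteoblast list 2 of 2 tested were higher, and its sum lay between 61.2 and 94.3 CPM. The part of the lists that moved in the collagen results was not tested.

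The second comparison set each double knockout clone against the Lkb1-/- cells it was made from, and so asked what changed with further loss of CRTC2. In untreated clone A1, 15 collagen genes were higher and 9 lower of 30, against 35.3% of all genes called, 18.9% higher and 16.4% lower, with a median log2 fold change of 0.78 (0.02 over all genes). In untreated clone A2, 4 were higher and 4 lower, against 32.3% of all genes called, 17.1% higher and 15.1% lower, with a median of -0.14 (0.02 over all genes). Among the 4 higher, Col2a1 and Col8a2 had under 10 counts in every Lkb1-/- library and passed the filter through the clones. They had little room to be called lower in either clone. Col8a2, the only gene called in A2 and not in A1, had 6, 15 and 13 counts against 5, 5 and 2. That call was lost without 5 single libraries (FDR 0.0704 to 0.174). Under IL-1β the counts were 13 higher and 5 lower in A1, against 36.7% of all genes called, 19.4% higher and 17.3% lower, and 3 higher and 4 lower in A2, against 32.8% of all genes called, 17.1% higher and 15.8% lower. The A2 counts depended on the Lkb1-/- libraries: untreated, 8 genes were called with all 3, and 5, 4 and 5 without Lkb1-/- library 1, 2 or 3, and with IL-1β 7 fell to 4 without Lkb1-/- library 2. Both comparisons share the same Lkb1-/- libraries, so their changes are given side by side.

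Of the genes called in both untreated clones, 6 went the same way and 1 the opposite way. Col1a2 read 199.8, 279.9 and 258 CPM in A1 and 79.3, 145 and 158 CPM in A2, against the Lkb1-/- values above, with log2 fold changes of 1.96 ± 0.28 and 1.02 ± 0.28 (FDR 1.52e-05 and 0.00730). All 6 clone libraries lay above all Lkb1-/- libraries and below all WT libraries. Col11a2, the second type XI chain, read 1.44, 1.51 and 0.988 CPM in A1 and 1.67, 1.27 and 1.56 CPM in A2 (0.89 ± 0.33 and 1.08 ± 0.33), and its A1 libraries overlapped those of Lkb1-/- cells. Col27a1, a cartilage fibrillar chain, read 4.85, 4.25 and 4.87 CPM in A1 and 1.35, 1.88 and 1.70 CPM in A2 and was lower in both (-0.86 ± 0.24 and -2.37 ± 0.26; FDR 0.00813 and 6.84e-07). Col4a2 was lower in both as well (-0.70 ± 0.12 and -0.31 ± 0.12; FDR 8.88e-05 and 0.0495), at 70.8, 66.8 and 64.8 CPM in A1 and 75.1, 88.3 and 102 CPM in A2. Among the rare genes, Col2a1 was higher and Col17a1 lower in both. Col2a1 had under 10 counts in every Lkb1-/- library and Col17a1 in every A2 library, which left little room for the opposite call. For A2, Col2a1 had 68 counts against 5 in Lkb1-/- cells, a ratio of 12.7 (95% exact interval 5.19 to 40.4), and Col17a1 had 6 against 90, which makes the Lkb1-/- to A2 ratio 16 (95% exact interval 7.09 to 44.9). Several of these calls were lost without single libraries. In A2 the Col4a2 call was lost without any 1 Lkb1-/- library or A2 library 1 or 2 (FDR 0.0571 to 0.210), and the Col11a2 call without Lkb1-/- library 2 or 3 (FDR 0.0611 to 0.0841). In A1 the Col11a2 call was lost without A1 library 1 or 2 or Lkb1-/- library 2 or 3 (FDR 0.113 to 0.193), the Col17a1 call without any 1 library (FDR 0.0543 to 0.182) and the Col2a1 call without any 1 but Lkb1-/- library 2 (FDR 0.0600 to 0.123). Col12a1 was called in opposite directions, at 175, 215 and 198 CPM in A1 (0.86 ± 0.17, FDR 4.84e-04) and 60.5, 96.2 and 80.5 CPM in A2 (-0.45 ± 0.17, FDR 0.0496). Its A2 call was lost without Lkb1-/- library 1 or 2 or A2 library 1 or 3 (FDR 0.0699 to 0.236).

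Another 17 collagen genes were called in A1 and not in A2, 11 of them higher and 6 lower. The increases were in 7 fibrillar or network genes and in Col18a1, Col7a1, Col20a1 and Col22a1, and the decreases were those of Col6a3, Col24a1, Col4a1 and the rarer Col15a1, Col25a1 and Col28a1. The Col28a1 call was lost without any 1 library but A1 library 1 (FDR 0.0531 to 0.142) and the Col25a1 call without A1 library 1 or Lkb1-/- library 3 (FDR 0.0874 to 0.0997). Col15a1 and Col28a1 had under 10 counts in every A1 library, which left little room to be called higher. Of the 17, 13 also differed between the clones when A2 was set against A1, and Col1a1, Col22a1, Col25a1 and Col28a1 did not pass that test. Without the filter on low counts, and with the replicate number as a block, Col1a1 passed it. Several of the 17 were called in A2 as well under other settings. Without the filter on low counts these were Col1a1 and Col11a1, higher as in A1, Col4a1, lower as in A1, and Col5a2 and Col5a3, lower in A2 and higher in A1 (-0.26 and -0.43 on the log2 scale in A2). Col8a1 read 125, 135 and 131 CPM in A1, against 13.7, 8.56 and 8.74 CPM in Lkb1-/- libraries (3.66 ± 0.21, FDR 7.88e-11), and 12.6, 8.29 and 6.32 CPM in A2, where it was not called (-0.18 ± 0.21). Col11a1 read 61.5, 84.8 and 80.8 CPM in A1 (1.89 ± 0.32, FDR 7.64e-05) and 18.1, 39.3 and 42.7 CPM in A2 (0.70 ± 0.31, not called with all libraries; FDR 0.00733 without A2 library 1). Col18a1 read 101, 101 and 119.8 CPM in A1 (1.84 ± 0.19, FDR 2.68e-07) and 29.7, 32.1 and 41.5 CPM in A2 (0.20 ± 0.19, not called). For these 3 genes the A1 libraries all lay above the A2 and the Lkb1-/- libraries. Smaller rises in A1 were those of Col4a5 (1.20), Col5a3 (1.01), Col7a1 (0.89), Col1a1 (0.86), Col5a2 (0.85) and Col5a1 (0.71), all log2 fold changes, and the Col7a1 call was lost without Lkb1-/- library 2 (FDR 0.0620). Col1a1 read 2356, 2951 and 2792 CPM in A1 and 1486, 2298 and 2658 CPM in A2, where it was not called (0.53 ± 0.21, FDR 0.0547) but passed with DESeq2 (FDR 0.0302), with upper quartile normalization (FDR 0.0275), without the filter (FDR 1.67e-08) and without A2 library 1 (FDR 0.00470). Col5a1 read 652, 818 and 815 and 343, 469 and 473 CPM and Col5a2 953, 1313 and 1105 and 393, 634 and 565 CPM in A1 and A2.

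Type VI RNA stayed high in both clones. Col6a1 read 394, 463 and 432 CPM in A1 and 288, 438 and 497 CPM in A2, and Col6a2 201, 237 and 226 and 126, 189.7 and 216 CPM, with no call against Lkb1-/- cells in either clone. Without the filter on low counts Col6a1 was called higher in A1 (FDR 0.0230). Col6a3 read 160.3, 147 and 161 CPM in A1, lower than in Lkb1-/- cells (-0.35 ± 0.11, FDR 0.0187; FDR 0.0833 to 0.0888 without Lkb1-/- or A1 library 2), and 187, 218 and 228 CPM in A2 (0.08 ± 0.11, not called). Every clone library lay over 100 CPM for all 3 genes, as did every Lkb1-/- library. Col24a1 read 0.902, 1.15 and 1.08 CPM in A1, lower than in Lkb1-/- cells (-1.12 ± 0.19, FDR 8.47e-05), and 2.48, 3.19 and 3.02 CPM in A2 (0.34 ± 0.18, not called). Col3a1 (446, 637 and 724 CPM in A1, 295, 604 and 794 CPM in A2) was not called in either clone, and without the filter it was called lower in A2 (FDR 0.0170). Col4a1, with 122, 113 and 103 and 133, 143 and 167 CPM, was lower in A1 (-0.67 ± 0.11, FDR 8.64e-05) and not called in A2 (-0.28 ± 0.11, FDR 0.0630). In A2 it passed with DESeq2 (FDR 0.0493), with upper quartile normalization (FDR 0.0275), in a fit of only these groups (FDR 0.0351), without the filter (FDR 0.00204) and without A2 library 3 (FDR 0.0269).

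**Figure D4:**
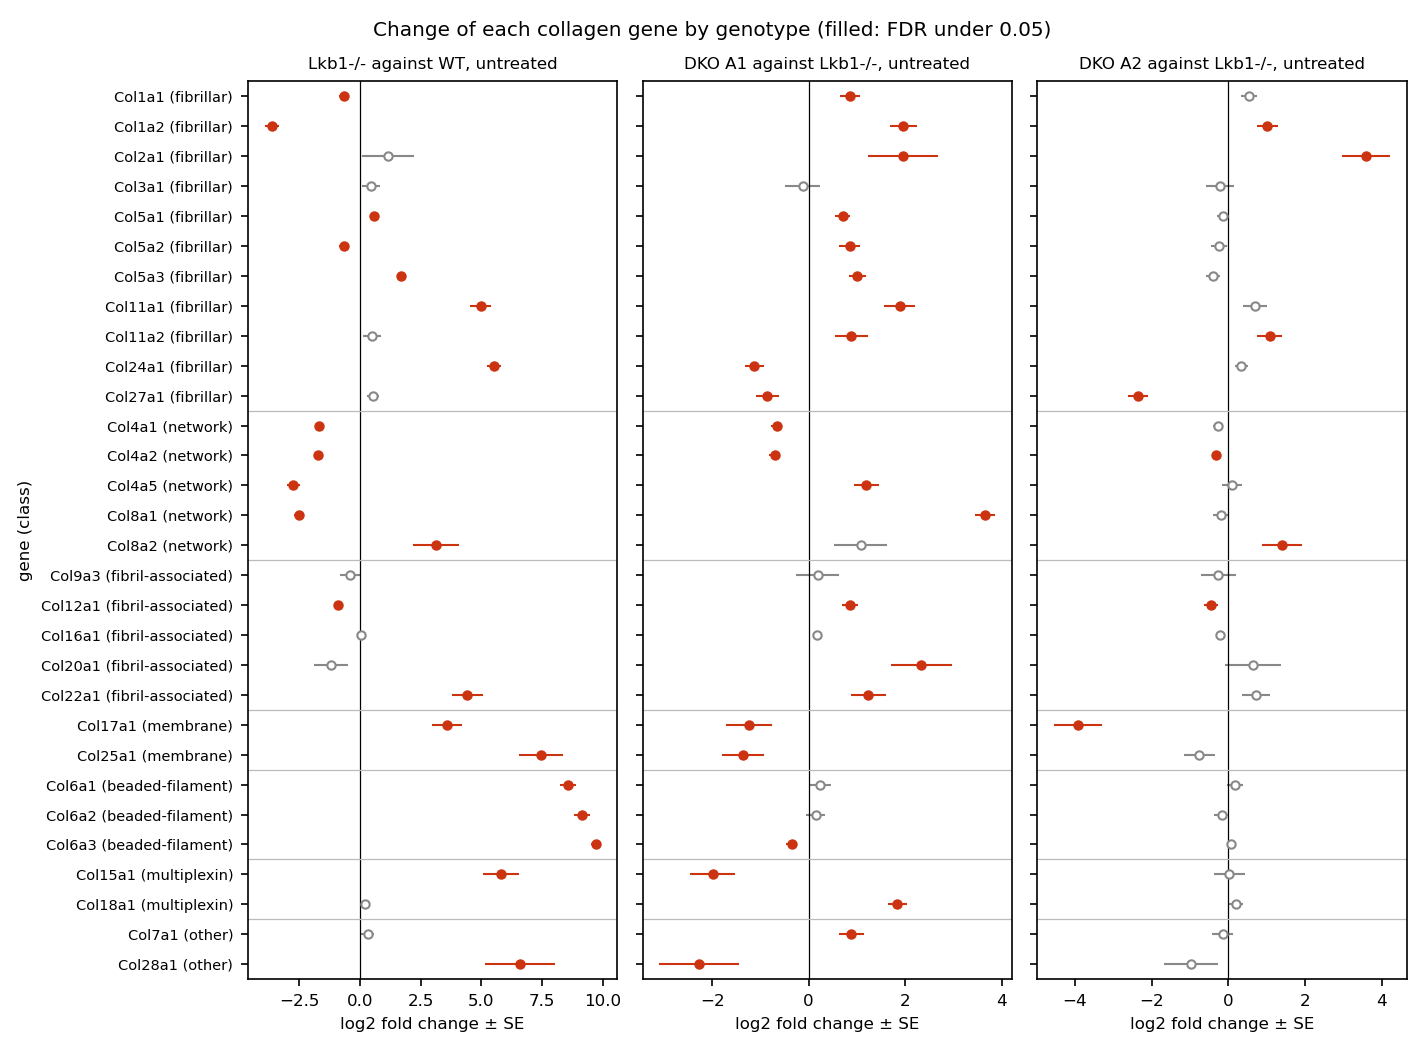
Log2 fold changes (points) with standard errors (bars) of the 30 collagen genes tested, untreated, for Lkb1-/- against WT and for each clone against Lkb1-/-. The type VI genes lie between 8.58 and 9.70 in the first comparison and near 0 in the clones, and Col8a1 stands at 3.66 in A1. Filled points passed FDR 0.05. Where a group had 3 counts or fewer in each library, the fitted value depends on the prior count.

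Compared directly, A2 had 6 collagen genes higher and 14 lower than A1 in untreated cells, of 30, against 32.5% of all genes called, 15.8% higher and 16.7% lower. Of the 6, Col2a1 had under 10 counts in every A1 library, which left little room to be called lower. Col8a1 differed most, by -3.84 ± 0.21, FDR 5.65e-11. Set against WT, 17 collagen genes were higher and 4 lower in A1 (55.4% of all genes called, 30.3% higher and 25.1% lower) and 14 higher and 8 lower in A2 (60.6% of all genes called, 32.7% higher and 27.9% lower), and the 8 tested genes with under 10 counts in all WT libraries had little room to be called lower there too. Col8a1 was higher than WT in A1 (1.16 ± 0.19) and lower in A2 (-2.68 ± 0.21), while Col1a2 was lower in both (-1.67 ± 0.28 and -2.61 ± 0.29). Per kilobase, the ratio of Col1a1 to Col1a2 was 9.97 ± 0.588 in A1 and 15.4 ± 1.35 in A2, and Col5a1 to Col5a2 was 0.248 ± 0.0112 in WT and 0.590 ± 0.0322, 0.537 ± 0.0454 and 0.643 ± 0.0543 in Lkb1-/-, A1 and A2 cells. Marker levels differed between the clones as well. Acta2 averaged 22.9 ± 6.08 CPM in A1 and 1.99 ± 0.604 CPM in A2, and Acan 38.1 ± 6.10 and 21.1 ± 9.65 CPM, and their part in the collagen results was not tested.

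The IL-1β comparison asked how the cells responded to IL-1β, which signals through NF-κB. Few collagen genes were called in the fit of all 8 groups. Of 30 tested, 1 was higher and 0 lower in WT (2.26% of all genes called, 1.53% higher and 0.731% lower), 3 and 1 in Lkb1-/- (4.74%, 2.65% and 2.09%), 3 and 1 in A1 (1.99%, 1.2% and 0.788%) and 3 and 2 in A2 (5.68%, 2.81% and 2.86%). Without the filter on low counts the calls numbered 7 in WT, 12 in Lkb1-/-, 8 in A1 and 11 in A2, against 2.59%, 3.88%, 2.47% and 4.47% of all genes. Leaving out the untreated A2 library 1 raised the A2 count from 5 to 10, and leaving out single A1 libraries lowered the A1 count from 4 to 1 or 2: to 1 without the untreated library 1 and to 2 without any other. Leaving out the untreated WT library 1 raised the WT count from 1 to 2.

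Col5a3, a type V chain, rose with IL-1β in all 4 genotypes. It read 87.5, 78.9 and 83.9 CPM in treated WT libraries against the 33.1, 24.6 and 33.5 CPM untreated (1.46 ± 0.19, FDR 6.00e-05) and 202, 223 and 242 CPM in treated Lkb1-/- libraries (1.17 ± 0.19, FDR 3.08e-04). In A1 it went from 191, 177 and 229 to 367, 395 and 506 CPM (1.09 ± 0.18, FDR 0.00145) and in A2 from 72.3, 54.1 and 97.0 to 195, 149 and 245 CPM (1.40 ± 0.19, FDR 4.33e-05). In each genotype the treated libraries lay above the untreated ones with no overlap.

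Col8a1 and Col24a1 were called higher in the 3 genotypes that lacked LKB1. Col8a1 read 28.5, 21.2 and 21.8 CPM in treated Lkb1-/- libraries (1.20 ± 0.20, FDR 6.34e-04), 202, 238 and 254 CPM in A1 (0.83 ± 0.19, FDR 0.0211) and 23.2, 16.2 and 15.4 CPM in A2 (1.00 ± 0.20, FDR 0.00352). In WT it read 91.6, 95.9 and 95.6 CPM against 58.7, 56.6 and 59.8 CPM untreated, with no overlap, and was not called (0.69 ± 0.19, FDR 0.0619). The WT rise was called by DESeq2 (FDR 0.0330), in a fit of the WT groups alone (FDR 2.70e-04), without the filter on low counts (FDR 2.16e-12) and without the 8 libraries numbered 1 (FDR 6.53e-05). The difference between the Lkb1-/- and WT responses was 0.51 ± 0.28, FDR 0.989, and it passed under the last 2 of these settings only (FDR 0.00278 and 0.0269). Col24a1 read 3.84, 5.17 and 4.77 CPM in treated Lkb1-/- libraries (1.01 ± 0.18, FDR 9.53e-04), 2.45, 1.86 and 1.52 CPM in A1 (0.90 ± 0.19, FDR 0.0128) and 4.48, 5.33 and 4.58 CPM in A2 (0.73 ± 0.17, FDR 0.0130), while both WT groups stayed at or under 3 counts per library, where no fold can be given. In A1 the Col8a1 call was lost without any 1 library but treated library 1 (FDR 0.0699 to 0.105) and the Col24a1 call without either library 1 (FDR 0.0783 to 0.107), and in A2 the Col24a1 call was lost without treated library 2 (FDR 0.0594).

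Col6a3 fell in the same 3 genotypes. It read 115, 145 and 131 CPM in treated Lkb1-/- libraries (-0.61 ± 0.11, FDR 0.00175), 125, 107 and 111 CPM in A1 (-0.45 ± 0.11, FDR 0.0429) and 152, 149 and 141 CPM in A2 (-0.52 ± 0.11, FDR 0.00683), and the treated libraries lay below the untreated ones in each. The WT libraries held 2 to 15 counts of Col6a3, which left little room to show a fall. Col11a1 was called lower in A2, from 18.1, 39.3 and 42.7 to 9.29, 14.7 and 16.1 CPM (-1.32 ± 0.32, FDR 0.0130). It also read lower with no overlap in treated Lkb1-/- (8.68, 11.4 and 13.8 CPM; -0.86 ± 0.32, FDR 0.166) and A1 libraries (mean 40.1 ± 5.50 CPM, SD, n = 3; -0.92 ± 0.31, FDR 0.173). There it passed without the filter on low counts (FDR 2.98e-12 and 2.08e-14), without the 8 libraries numbered 1 (FDR 3.59e-04 and 3.12e-04) and with the replicate number as a block. In WT, Col11a1 read 0.268, 1.06 and 0.626 CPM untreated and 0.0494, 0.490 and 0.336 CPM treated. The WT groups overlapped, and the gene was not called there except without the filter. The Col6a3 call in A1 was lost without any 1 of its 6 libraries (FDR 0.0533 to 0.215), and the Col11a1 call in A2 without treated library 1 or untreated library 2 or 3 (FDR 0.0587 to 0.0714). Col1a1 was not called in any genotype, with log2 fold changes of -0.40 ± 0.21 in WT, -0.35 ± 0.21 in Lkb1-/-, -0.28 ± 0.21 in A1 and -0.37 ± 0.21 in A2, nor was Col1a2 (-0.44 ± 0.27, -0.61 ± 0.28, -0.38 ± 0.27 and -0.66 ± 0.28). Both results depended on the setting, and with the replicate number as a block both genes were called lower in all 4 genotypes. Without the filter on low counts, and again without the 8 libraries numbered 1, Col1a2 was called lower in all 4 genotypes (FDR 2.35e-13 to 5.69e-04 and FDR 7.00e-05 to 0.0146) and Col1a1 in WT, Lkb1-/- and A2 cells. Without the filter, Col12a1 and Col4a5 were also called lower in Lkb1-/-, A1 and A2 cells and Col6a1 and Col6a2 lower in Lkb1-/- cells, while Col18a1 was called higher in Lkb1-/- (FDR 0.0286) and A2 cells (FDR 3.84e-04). DESeq2 called Col4a5 lower in A2 (FDR 0.0276) and Col27a1 lower in WT cells (FDR 0.0456). When the Lkb1-/- response was tested against the WT response, 0 collagen genes differed in edgeR and 0 in DESeq2. In edgeR 0.245% of all genes differed (0.137% higher and 0.108% lower). An unadjusted edgeR p under 0.05 was found for 3 collagen genes (Col15a1, Col20a1 and Col27a1) and for 985 of all 17522 genes.

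**Figure D5:**
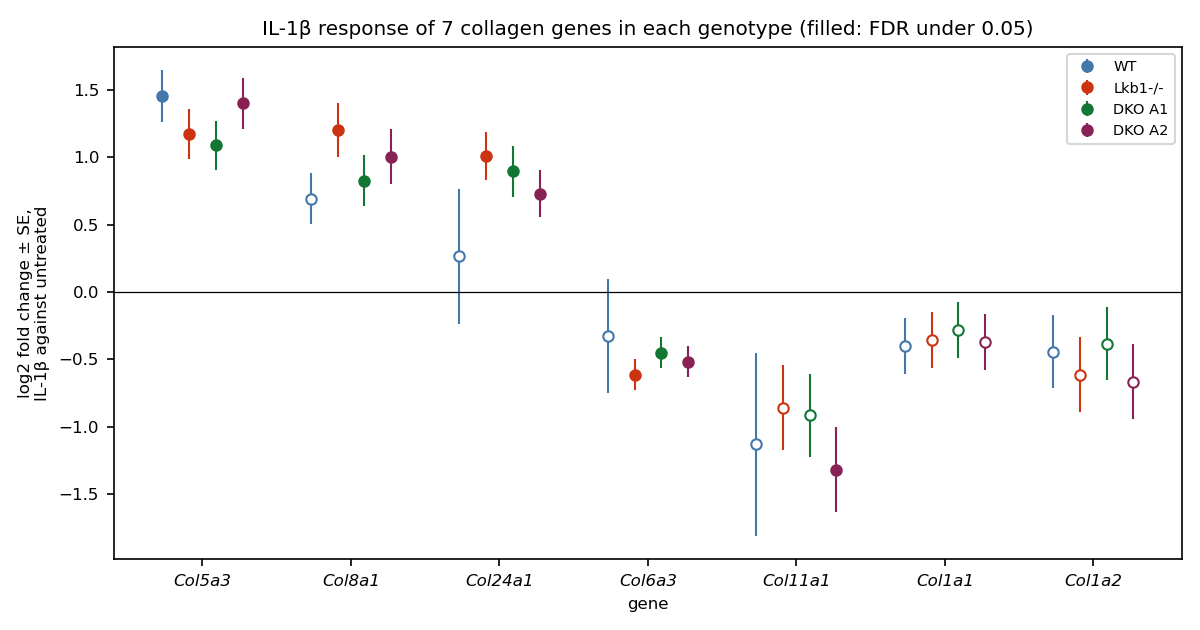
Log2 fold change (point) and standard error (bar) with IL-1β for 7 collagen genes in WT, Lkb1-/-, A1 and A2 cells (filled: FDR under 0.05). Col5a3 lies between 1.09 and 1.46, and Col6a3 is below 0 in the 3 genotypes where it was called.

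Genes that modify, process, crosslink or bind collagen chains were taken from textbook lists. Of the modification and folding genes tested, 9 were higher and 4 lower of 19 in Lkb1-/- against WT cells, where 55.9% of all genes were called (30.1% higher and 25.8% lower). Among those called were the lysyl hydroxylase Plod2 (2.25 on the log2 scale), the prolyl 3-hydroxylase family member P3h3 (1.74) and the prolyl 4-hydroxylase subunit P4ha2 (1.40), all higher, with P3h2 lower (-1.08). Of the propeptide processing genes 3 were higher and 1 lower of 7, a share close to that over all genes. The N-proteinase Adamts3, at 0 counts in every WT library, was at least 9.84-fold higher, Adamts2 was higher (1.89) and the C-proteinase enhancer Pcolce2 lower (-2.28). Of the lysyl oxidase family 3 were higher and 1 lower of 5 (Loxl2 1.98, Loxl3 1.97, Lox 0.73, Loxl4 -1.16). Of the receptors 4 were higher and 2 lower of 8, among them the collagen-binding integrin chains Itga2 (5.07) and Itga1 (3.72) higher and Itga10 (-1.20) lower. Itga11 lay at 0.00767 ± 0.0133 CPM in WT and 0.545 ± 0.256 CPM in Lkb1-/- cells.

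Against Lkb1-/- cells, 3 modification genes were higher and 2 lower of 19 in A1, against 35.3% of all genes called, 18.9% higher and 16.4% lower, and 4 were higher and 4 lower in A2, against 32.3% of all genes called, 17.1% higher and 15.1% lower. Of 7 propeptide processing genes 3 were higher and 0 lower in A1 and 5 higher and 1 lower in A2, with Adamts2 higher in both (1.84 and 1.42). In the lysyl oxidase family, Loxl1 (1.18) and Lox (0.91) were higher in A1, and in A2 Loxl1 was higher (0.53) and Loxl2 (-1.69) and Loxl4 (-0.55) lower. Among the receptors the shared integrin β1 chain Itgb1 was lower in both clones (-0.44 and -0.68) and the uptake receptor Mrc2 higher (0.60 and 0.51). With IL-1β, where 2.26%, 4.74%, 1.99% and 5.68% of all genes were called in WT, Lkb1-/-, A1 and A2, 0 of 7 propeptide processing genes were called in any genotype in edgeR, and 5 of the 28 tests had an unadjusted p under 0.05. Of all 17522 genes, 2001, 2571, 1881 and 3076 had such a p in WT, Lkb1-/-, A1 and A2. Of the 5 lysyl oxidase family genes 0 were higher and 1 lower in WT, 0 and 1 in Lkb1-/-, 0 and 1 in A1 and 1 and 2 in A2 cells.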

How the data were processed

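RNA-seq libraries of 24 MEF samples were analysed. Per the study's methods and the submitters' processing notes, the authors trimmed reads with Trim Galore 0.6.0, aligned them to mm10 with STAR 2.7.8a and deposited STAR's raw read counts per gene, with 1 file per library. The study's methods and its sample labels name different library kits, and this was not settled here. Stranded counts (second strand) were used, since they held 95.5% to 96.0% of stranded gene counts, and 4 summary lines that name no gene (26.7% to 34.4% of the total per library) stayed out. Symbols came from GENCODE M21 (GRCm38) by Ensembl ID and matched 55230 of 55471 IDs. Gene counts of 38842901 to 48594394 per library limit precision for members near 0.

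In R 4.3.3, edgeR 4.0.16 fitted all 8 groups together (TMM factors 0.922 to 1.09, filterByExpr with a minimum count of 10 and total of 15, quasi-likelihood F test) in 14 contrasts, with Benjamini-Hochberg adjustment over 17522 genes and FDR under 0.05. The fit was tested on simulated data. CPM use TMM-scaled totals. Levels per kb use 1 annotated transcript per gene. Alternatives were DESeq2 1.42.0, other size factors, no filter, unstranded counts, only the groups compared, the replicate number as a block, each library left out, and, chosen after seeing the data, the 8 libraries numbered 1 left out. The fit without the filter took in 36796 genes. All alternatives use the same libraries, so a call gained under 1 of them shows dependence on the setting and is not separate support. The members, classes and gene lists were chosen with earlier results of these data known.

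Values per library are given for Col1a1, Col1a2, Col3a1, Col5a1, Col5a2, Col4a1, Col4a2 and Col6a1 to Col6a3, for up to 4 called members per direction and genotype contrast with the largest change and a group mean of at least 1 CPM, and for members called with IL-1β.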

Additional observations from a re-analysis of the deposited data

Results flagged for a closer look

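The changes of clones A1 and A2 from Lkb1-/- cells differed for 20 of 30 collagen genes tested in untreated cells, where 32.5% of all 17522 genes were called. Both changes use the same Lkb1-/- libraries, so the difference of the changes is the direct contrast of A2 with A1 (edgeR, FDR under 0.05), and the values below are log2 differences, A2 minus A1. Among the fibrillar genes the difference was -1.51 for Col27a1, -1.42 for Col5a3, -1.18 for Col11a1, -1.08 for Col5a2, -0.95 for Col1a2 and -0.83 for Col5a1, and A2 was higher for Col24a1 (1.47) and the rare Col2a1 (1.63). Among the network genes it was -3.84 for Col8a1, -1.10 for Col4a5 and 0.39 and 0.39 for Col4a1 and Col4a2. Of the fibril-associated genes Col20a1 differed by -1.70, Col12a1 by -1.31 and Col16a1 by -0.38. Of the multiplexins Col18a1 differed by -1.64 and Col15a1 by 2.01. Col7a1, an anchoring fibril collagen, differed by -1.04, Col6a3 by 0.43 and the membrane collagen Col17a1 by -2.67, the last from 6 counts over the 3 A2 libraries, where the fitted value depends on the prior count. The Col2a1 and Col20a1 calls were each lost without 3 single libraries (FDR 0.0605 to 0.121 and FDR 0.0518 to 0.137), and the Col4a1 and Col4a2 calls without library 3 of either clone (FDR 0.0517 to 0.0626 and FDR 0.0566 to 0.0698). For Col8a1 the A1 change from Lkb1-/- cells was 3.66 and the A2 change -0.18. Each clone is a single line, so a difference between the clones and a difference between any pair of single-cell lines cannot be told apart.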

How the results depend on the processing

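The alternatives recomputed 178 values of single collagen genes 2471 times: 0 turned direction, 135 were no longer called and 2336 kept their direction and call. Of 202 recomputed counts of called collagen genes, 169 stayed within 1.5 times the reported count. Counts for Lkb1-/- against WT (20 to 24 with a library left out), A1 against Lkb1-/-, A2 against A1 and either clone against WT did not move by more than 1.5 times under any alternative run. Without the filter on low counts, the count rose to 15 for A2 against Lkb1-/- untreated (8 as reported) and 16 with IL-1β (7), and for the IL-1β responses to 7 in WT (1), 12 in Lkb1-/- (4), 8 in A1 (4) and 11 in A2 (5). The difference in response between Lkb1-/- and WT gave 1 gene (0), Col8a1. The share of all genes called under that setting was 15.1%, 15.3%, 2.59%, 3.88%, 2.47%, 4.47% and 0.943% in the same order. Fitting only the groups compared gave 2 in the WT and 2 in the A2 response, and DESeq2 gave 3 in the WT response. Of all genes, these fits called 2.52%, 1.54% and 3.56%. Without the 8 libraries numbered 1, an alternative chosen after seeing the data, the count was 12 for A2 against Lkb1-/- with IL-1β, 5, 7 and 10 for the WT, Lkb1-/- and A2 responses and 1 for the difference in response, again Col8a1. Those libraries left out, 38.7%, 5.28%, 8.79%, 14.6% and 0.842% of all genes were called in the same order. With each library left out in turn, counts ranged from 4 to 9 (A2 against Lkb1-/-, untreated), 4 to 8 (the same with IL-1β), 1 to 2 (WT response), 1 to 2 (A1 response) and 4 to 10 (A2 response). The calls lost most often, of 14 settings each, were those of Col2a1 and Col17a1 in A1 untreated and Col15a1 in A1 with IL-1β, against Lkb1-/- cells (8 settings each), and of Col12a1 and Col8a2 in A2 untreated and Col6a3 in the A1 response (7 each). The cause of these shifts was not tested. Depth limits the 9 members under 1 CPM, whose values rest on few counts.

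A replicate block was tried as well, under which no call was lost and the counts were 16 for A2 against Lkb1-/- untreated, 14 with IL-1β, and 7, 12, 9 and 10 for the WT, Lkb1-/-, A1 and A2 responses. The share of all genes called rose with it as well, to 45.9%, 46.6%, 9.3%, 14.8%, 9.61% and 17.9% in the same order. With this block Col1a1 and Col1a2 were called lower in all 4 responses (FDR 0.00397 to 0.0449 and FDR 4.68e-06 to 0.00317), each being lower with IL-1β in 12 of 12 same-numbered pairs. It also called Col8a1 higher in the WT response (FDR 0.00298), Col3a1, Col27a1 and Col18a1 higher in untreated Lkb1-/- against WT cells (FDR 0.00411, 0.0337 and 0.0220) and Col6a1 higher in untreated A1 against Lkb1-/- cells (FDR 0.0465). The block added Col1a1 and Col6a2 for untreated A2 against A1 and, among others, Col11a1 in the Lkb1-/- and A1 responses. For untreated A2 against Lkb1-/- cells it added Col1a1, Col11a1 and Col18a1 as higher and Col4a1, Col5a1, Col5a2, Col5a3 and Col16a1 as lower, of which Col5a1, Col5a2 and Col5a3 went the other way in A1, where they were called higher. The block is given as an alternative because the labels do not say that a number marks a shared batch and the study's own model held no block. Same-numbered libraries nevertheless deviated together as a hint from the data. The correlations of their deviations from the group means had a median of 0.222 (0.0355 to 0.589, 69 of 84 pairs above 0.1), and 23 of 24 libraries correlated best with their own number. The 168 pairs of different numbers had a median of -0.115 (8 above 0.1). Deviations sum to 0 within each group, so this negative value follows from the positive one and is not separate evidence.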
